A study of Mus musculus with 18 samples.

Results

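The growth hormone and insulin-like growth factor (IGF) axis of the mouse liver was followed through 10 genes, taken by symbol from the 21441 genes of the deposited liver table. They are Ghr, Stat5a, Stat5b, Socs2, Igf1, Igfals, Igfbp1, Igfbp2, Igfbp3 and Igfbp4. All 10 were in the table, and all 10 had a mean above 1 FPKM (fragments scaled to transcript length and library size) over the 9 liver libraries, as did 10147 genes in total. The livers came from wild type male C57BL/6 mice whose age is not given in the sources used here, with 3 libraries in each of 3 groups. Control mice received the vehicle (10% DMSO) and a saline injection. LPS mice received the same vehicle by gavage and then 10 mg/kg lipopolysaccharide (LPS), the outer membrane component of Gram-negative bacteria, into the peritoneum. LPS+MIC-1 mice were gavaged for 3 days with 80 mg/kg moringa isothiocyanate-1 (MIC-1) in 10% DMSO ahead of the same LPS injection. Livers were taken 16 h after the injection, from groups of 6 mice of which 3 each were sequenced. The sources differ on the material given: the study's text describes MIC-1 purified from moringa seed extract, and the labels state that mouse experiments were standardized to the MIC-1 content of the extract. No group received MIC-1 without LPS, so the effect of MIC-1 on these genes in a resting liver was not measured.

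Growth hormone binds its receptor on hepatocytes and, through the kinase Jak2, activates the transcription factors Stat5a and Stat5b. These switch on Igf1, the source of most circulating IGF-1, and Igfals, whose product joins IGF-1 and Igfbp3 in a stable complex in plasma. They also switch on Socs2, which damps the receptor in return. The other IGF binding proteins hold IGF-1 in smaller complexes and limit its access to receptors, and Igfbp1 among them is repressed by insulin. Loss of the hepatic response to growth hormone is a well known feature of sepsis, of which LPS injection is a common model.

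Libraries are numbered within a group by their order in the table, since its columns carry no replicate number, and p-values measure only the spread between these libraries. Their depth, estimated from the steps between low FPKM values, was 4900000 to 11200000 reads in the controls, 13000000 to 19700000 in the LPS group and 15200000 to 20100000 in the LPS+MIC-1 group, so low genes were measured least precisely in the controls. The hepatocyte markers Alb, Apoa1 and Ttr were abundant in all 9 libraries, with Alb at 13740.1 to 35991 FPKM. Several libraries stood apart from their group. Libraries 1 and 3 of the LPS group were close to each other (r = 0.979 over genes on the log2 scale), as were libraries 1 and 3 of the LPS+MIC-1 group (r = 0.979), whereas library 2 reached only 0.889 to 0.893 and 0.932 to 0.935 with the others of its group. LPS library 2 was about as close to control libraries 1 and 2 (0.886 and 0.885), and it was closest to LPS+MIC-1 library 2 (0.947). Control library 2 held 1491 FPKM of the acute phase gene Saa1, against 187 and 13.9 in the other controls. Most neutrophil markers rose with treatment: their summed level over 7 genes was 37.0 to 52.4 FPKM in the controls, 351 to 448 with LPS and 191 to 460.4 with LPS+MIC-1. Of these S100a8 made up 228 to 286 FPKM with LPS. Cxcr2 went the other way, from 26.5 to 42.6 FPKM in the controls to 3.89 to 10.1 with LPS. The part of neutrophils in the results was not tested. Because whole liver was measured, fewer cells of a type and less RNA per cell cannot be told apart.

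After LPS, Igfals and Socs2, both targets of growth hormone signalling, were lower in liver. Igfals fell to 0.232 times the control mean and Socs2 to 0.204 times. Igf1 stood at 0.578 times and Ghr at 0.661 times the control mean, each below the control range in every LPS library. Igfbp1 was 8.14 times the control mean with a spread between LPS libraries that kept it from passing the test. A gene was called where limma gave a Benjamini-Hochberg adjusted p below 0.05 and an absolute Log2FC above 1, on the log2(FPKM + 0.5) scale. By this rule 0 members rose, 2 fell and 8 were not called, against a background of 11.2% of all tested genes called lower and 24.6% called in either direction. The median Log2FC of the 10 members was -0.48, that of all tested genes 0.15. For 6 members all LPS libraries lay below all control libraries, as they did for 20.8% of tested genes, and for 0 members all lay above. The share of genes apart in either direction was not counted for this comparison. For LPS+MIC-1 against control it was 54.6%, so such gaps were common there. An exact two-sided permutation test gave p = 0.1 for each of the 6 members, the smallest value that 3 against 3 libraries allow. The FPKM sum differed between groups (590303 to 758661 in the controls, 783886 to 887241 with LPS), and scaling every library to the same sum moved the median of all genes from 0.15 to -0.18. The calls over all genes then turned from 1356 higher and 1137 lower to 797 higher and 1851 lower. No member changed direction in this comparison under that scaling, and Igf1 joined the genes called lower (-1.14, adjusted p = 0.00543).

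**Figure D1:**
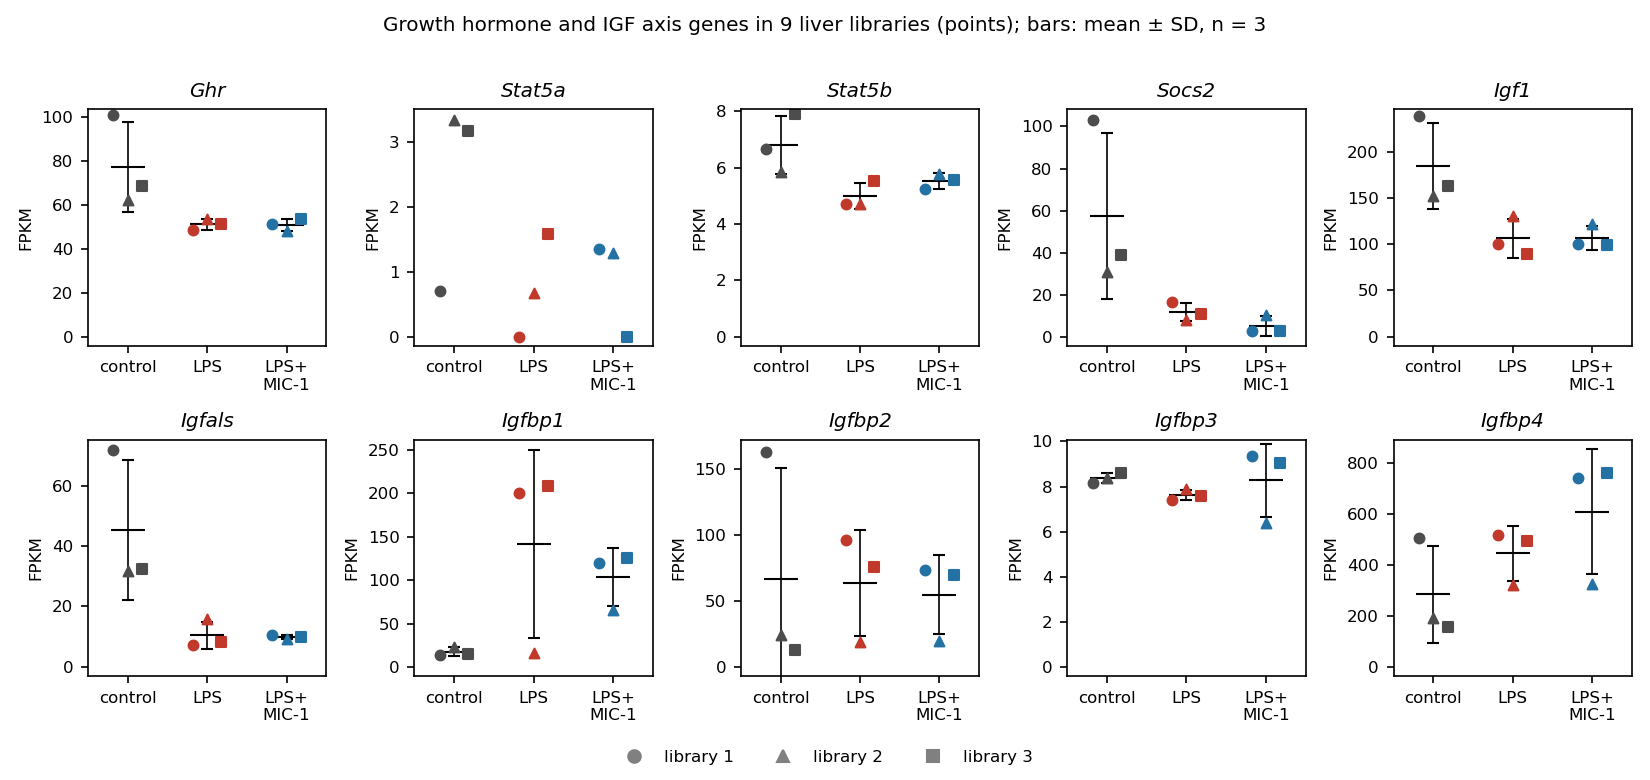
FPKM (vertical axes, each with its own range) of the 10 genes in the control, LPS and LPS+MIC-1 groups of liver. Symbols mark libraries 1 to 3, the horizontal bar is the mean and the whiskers the SD (n = 3, cut where they pass below 0), with none drawn for Stat5a, which is listed at 0 in 2 libraries. Igfals and Socs2 lie below the controls in all 6 treated libraries, whereas Igfbp1 separates libraries 1 and 3 from library 2 within the LPS group.

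Ghr encodes the growth hormone receptor and lies on the minus strand of chromosome 15 (chr15:3267760-3533492, NCBIM37, the assembly also called mm9, as for all gene positions here). Its level was 101, 62.5 and 68.7 FPKM in the controls, 48.6, 53.8 and 51.4 FPKM after LPS, and 51.2, 48.3 and 53.7 FPKM with LPS+MIC-1. The treated groups did not overlap the controls, and they overlapped each other. Log2FC of LPS against control was -0.56 (SE 0.20, adjusted p = 0.0605, limma), which did not pass. With LPS+MIC-1 the difference from the same controls was -0.57 (SE 0.20, adjusted p = 0.0574). The gap was partly carried by control library 1, without which the LPS difference was -0.35 (adjusted p = 0.0839).

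Stat5b and Stat5a, the transcription factors that carry the receptor's signal, are neighbours on chromosome 11, with 8626 bases between them (Stat5b at chr11:100642045-100712038, minus strand, and Stat5a at chr11:100720665-100746483, plus strand). Stat5b stood at 6.67, 5.86 and 7.90 FPKM in the controls, 4.72, 4.72 and 5.54 after LPS, and 5.24, 5.77 and 5.57 with LPS+MIC-1. All treated libraries were below all controls, by a Log2FC of -0.41 (SE 0.17, adjusted p = 0.0856) with LPS that was not called. Stat5a was listed at 0.704, 3.34 and 3.17 FPKM in the controls, at 0, 0.673 and 1.59 with LPS, and at 1.36, 1.29 and 0 with LPS+MIC-1. Its LPS libraries overlapped the lowest control, and its estimated reads were 0 to 93 per library, so its values rest on few reads. The pair are close paralogs whose reads pseudoalignment may split between them, and Stat5a also overlaps the annotated Stat3 gene, so their separate levels are uncertain. Summed, they gave 7.38, 9.20 and 11.1 FPKM in the controls against 4.72, 5.39 and 7.13 with LPS, a log2 difference of -0.64 (exact permutation p = 0.1). The summed LPS+MIC-1 values were 6.60, 7.05 and 5.57 FPKM, overlapping the LPS range with a log2 difference of 0.16 from it (exact permutation p = 0.5).

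Socs2 encodes a suppressor of cytokine signalling that is both a target and a brake of the receptor (chr10:94847996-94879814, minus strand). It was at 103, 30.7 and 38.7 FPKM in the controls and 16.3, 8.08 and 10.8 FPKM with LPS. In the LPS+MIC-1 group it was at 2.49, 10.4 and 2.44 FPKM. Every LPS library was below every control, and libraries 1 and 3 of the LPS+MIC-1 group were below every LPS library, while library 2 of that group lay within the LPS range. Socs2 fell with LPS by 2.09 on the log2 scale (SE 0.61, adjusted p = 0.0299, limma). This call was lost when any of 5 of the 6 libraries compared was left out (Log2FC -1.57 to -2.35, adjusted p 0.0552 to 0.0914), and it was kept without control library 2 (adjusted p = 0.0436). It was also lost when libraries 1 and 3 of each treated group, which lay so close together, were averaged and counted once (-2.19, adjusted p = 0.0947), an alternative added with the data in view. Against control, LPS+MIC-1 gave -3.45 (SE 0.61, adjusted p = 0.00496), and this call held with each library left out (-2.93 to -4.08, adjusted p at most 0.0234).

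Igf1 itself (chr10:87321010-87399792, plus strand, overlapped by the annotated gene Gm16176) was at 238, 152 and 163 FPKM in the controls. It was at 99.9, 130.2 and 89.6 FPKM after LPS and at 100.2, 122 and 98.6 FPKM in the LPS+MIC-1 group. No treated library reached the lowest control, and library 2 was the highest of both treated groups. The mean fell from 184 ± 46.6 FPKM (SD, n = 3) to 107 ± 21.1 with LPS and 107 ± 13.2 with LPS+MIC-1. For Igf1 the Log2FC was -0.78 (SE 0.23, adjusted p = 0.0336, limma) after LPS, and -0.76 (SE 0.23, adjusted p = 0.0346) in the LPS+MIC-1 group. Both passed the adjusted p and neither reached the minimum fold, so Igf1 was not called. Without control library 1 the adjusted p-values were 0.0563 and 0.0605, and over all libraries left out in turn that of LPS ran from 0.0137 to 0.128.

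Igfals, the acid-labile subunit of the circulating IGF complex, is a gene on chromosome 17 whose longest transcript has 2 exons (chr17:25014600-25018955, plus strand). Its level was 71.9, 31.6 and 32.3 FPKM in the controls, 7.42, 15.7 and 8.35 FPKM after LPS, and 10.6, 9.34 and 9.80 FPKM with LPS+MIC-1. The highest treated library was below the lowest control. Log2FC was -2.02 (SE 0.37, adjusted p = 0.00634, limma) with LPS and -2.03 (SE 0.37, adjusted p = 0.00557) with LPS+MIC-1. Both calls held with any library left out, at Log2FC values of -1.64 to -2.34 for LPS and -1.64 to -2.23 for LPS+MIC-1. Control library 1 was more than 2 times the other controls for Igfals and Socs2, and the call of Igfals stood without it (-1.64, adjusted p = 0.00741). With libraries 1 and 3 of the treated groups averaged, Igfals gave -1.86 (adjusted p = 0.0559) with LPS, which was no longer called, and -2.05 (adjusted p = 0.0350) in the LPS+MIC-1 group.

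Upstream sequences from the RefSeq promoter table (GRCm38.p6, a later build than the gene positions above) are shown for Igfals and Igfbp1, the members that hold the motifs searched. The table holds 15 promoters of 9 of the members, and Socs2 has no entry. In the 250 bases before each start, a match to TTCNNNGAA, the palindromic element of STAT5 (capitals in the Igfals sequence), was searched on both strands. So was TTNTTTTG, the core of the insulin response element through which Foxo factors act (capitals in the Igfbp1 sequence). The former occurred in 7.02% and the latter in 7.16% of all 32851 promoters, or in at least 1 promoter of 8.13% and 8.27% of genes. Igfals has a match 58 to 50 bases before one of its starts (chr17:24877981-24878230, plus strand). A further Igfals promoter holds another match 236 to 228 bases before its start. Igfbp1 (chr11:7197537-7197786, plus strand) holds 2 matches on opposite strands, 108 to 101 and 98 to 91 bases before its start. The other 12 promoters of the members, among them the remaining one of Igfals and that of Igf1, held neither motif in these windows. These are matches of letters only, and binding was not measured.
Igfals: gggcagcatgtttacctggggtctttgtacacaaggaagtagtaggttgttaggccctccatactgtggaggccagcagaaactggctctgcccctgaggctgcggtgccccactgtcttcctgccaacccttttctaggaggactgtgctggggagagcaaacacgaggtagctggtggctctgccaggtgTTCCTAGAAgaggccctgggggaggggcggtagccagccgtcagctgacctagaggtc
Igfbp1: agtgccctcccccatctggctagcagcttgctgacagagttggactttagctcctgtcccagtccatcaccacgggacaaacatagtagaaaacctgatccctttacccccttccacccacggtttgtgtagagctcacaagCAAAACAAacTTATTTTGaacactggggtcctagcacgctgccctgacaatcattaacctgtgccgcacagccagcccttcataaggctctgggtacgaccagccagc

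Igfbp1, the insulin-repressed binding protein, and Igfbp3, the carrier of most IGF-1 in plasma, lie 3539 bases apart on chromosome 11 (Igfbp1 at chr11:7097785-7102549, plus strand, and Igfbp3 at chr11:7106089-7113926, minus strand). Igfbp1 was at 13.9, 23.5 and 14.7 FPKM in the controls. With LPS it was at 199.9 and 208 FPKM in libraries 1 and 3 and at 16.2 FPKM in library 2, inside the control range. With LPS+MIC-1 it was at 119.8, 65.1 and 125 FPKM, above every control. Log2FC of LPS against control was 2.35 (SE 0.88, adjusted p = 0.0660, limma), not called. Without LPS library 2 it was 3.56 (SE 0.34, adjusted p = 5.37e-04) and was called. LPS+MIC-1 against control gave 2.52 (SE 0.88, adjusted p = 0.0520), and 2.52 (SE 0.33, adjusted p = 0.00454) when only these groups were fitted. Its neighbour Igfbp3 was nearly level, at 8.16, 8.39 and 8.58 FPKM in the controls and 7.41, 7.87 and 7.57 with LPS. The LPS values were all below the controls, yet the Log2FC was only -0.13 (95% interval -0.53 to 0.27). With LPS+MIC-1, Igfbp3 was at 9.36, 6.40 and 9.06 FPKM and overlapped both other groups.

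Igfbp4 (chr11:98902558-98913969), a binding protein that restrains IGF action, had the highest mean of the members in every liver group. It was at 504, 193 and 157 FPKM in the controls, 518, 323 and 494 after LPS, and 740.5, 327 and 759 with LPS+MIC-1. Control library 1 lay among the treated libraries, and library 2 was the lowest of both treated groups. Log2FC was 0.81 (SE 0.49, adjusted p = 0.222, limma) after LPS, and with MIC-1 as well 1.19 (SE 0.49, adjusted p = 0.0884). Without control library 1 these became 1.32 (adjusted p = 0.0371) and 1.70 (adjusted p = 0.0151), and both were called. Igfbp2 (chr1:72871077-72899048), another hepatic binding protein, was at 163, 23.9 and 12.6 FPKM in the controls. In LPS livers it was at 96.0, 18.7 and 75.8 FPKM, and after MIC-1 and LPS at 73.5, 20 and 69.9 FPKM. Within each group at least 1 library differed from another by a factor above 3, and the interval of the LPS difference ran from -1.80 to 2.76. Igfbp2 gave a Log2FC of 0.48 with LPS, which became -0.28 without control library 3, and 0.34 with LPS+MIC-1, the latter turning to -0.30 when libraries were rescaled to the same FPKM sum.

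**Figure D2:**
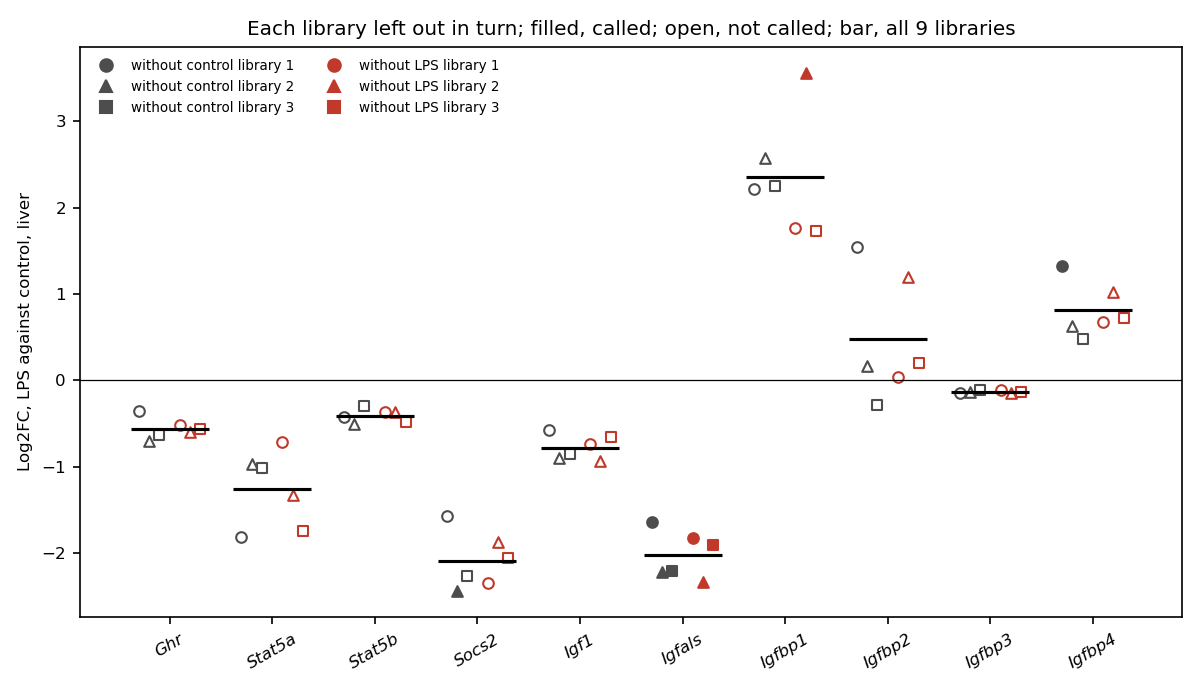
Log2FC of LPS against control in liver (vertical axis) for each gene, with all 9 libraries (horizontal bar) and with each control or LPS library left out (symbols). Filled symbols were called and open ones were not. Igfals was called in all 6 cases, Socs2 in 1, Igfbp1 only without LPS library 2 and Igfbp4 only without control library 1.

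With MIC-1 given before LPS, none of the 10 genes could be told from its level with LPS alone. No member was called, nor was any of the 10147 genes (smallest adjusted p = 0.0546, limma), while 364 genes (3.59%) and 0 members had an unadjusted p below 0.05. The background of called genes was therefore 0%. Group ranges were apart for 0 members and for 9.75% of all genes. The median Log2FC of the members was 0.06, that of all genes -0.01 (-0.26 when scaled to the same FPKM sum). The intervals were narrow for Ghr (-0.47 to 0.46), Igf1 (-0.52 to 0.55), Stat5b (-0.24 to 0.51) and Igfbp3 (-0.30 to 0.49), so a change of more than 1 on the log2 scale lay outside them. For Igfals the interval was -0.85 to 0.84. For Igfbp1 (-1.83 to 2.16), Igfbp2 (-2.42 to 2.14), Igfbp4 (-0.74 to 1.51) and Stat5a (-1.52 to 1.81) such a change lay inside the interval. Socs2 had the largest difference, -1.36 (SE 0.61, unadjusted p = 0.0531, adjusted p = 0.997). Leaving out library 2 of both treated groups, again added with the data in view, put Socs2 at -2.21 (SE 0.57, adjusted p = 0.104), with 303 genes but 0 members called. Weighting the libraries by their scatter with limma gave -2.13 (SE 0.29, adjusted p = 0.00187), the only member called there.

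Against the controls, the LPS+MIC-1 group gave 2 members lower (Igfals and Socs2) and 0 higher, with 11.5% of all genes called lower, 13.8% higher and 25.2% in all. Scaled to the same FPKM sum, the calls over all genes went from 1396 higher and 1164 lower to 535 and 2584, and 4 members were lower, with Ghr (-1.22, adjusted p = 0.00128) and Igf1 (-1.41, adjusted p = 0.00174) added. Ranges did not overlap for 5 lower members and for Igfbp1, which was higher, as for 24.1% of all genes in the lower direction and 54.6% in either. This comparison and that of LPS share their control libraries, so they are not separate evidence. The order of levels by group mean ran in the controls from Igfbp4 (285 FPKM) and Igf1 (184) through Ghr (77.6), Igfbp2 (66.5), Socs2 (57.3) and Igfals (45.3) to Igfbp1 (17.4), Igfbp3 (8.38) and Stat5b (6.81). In this order the ranges of Igfbp4 and Igf1 overlapped, as did those of Ghr, Igfbp2, Socs2 and Igfals with their neighbours, whereas Igf1 was apart from Ghr and Igfals from Igfbp1. With LPS, Igfbp1 (141 FPKM) came after Igfbp4 (445) with a range that overlapped Igf1 (107), and Igfals (10.5) and Socs2 (11.7) were near Igfbp3 (7.61). With LPS+MIC-1, Socs2 (5.11) overlapped Stat5b (5.52).

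**Figure D3:**
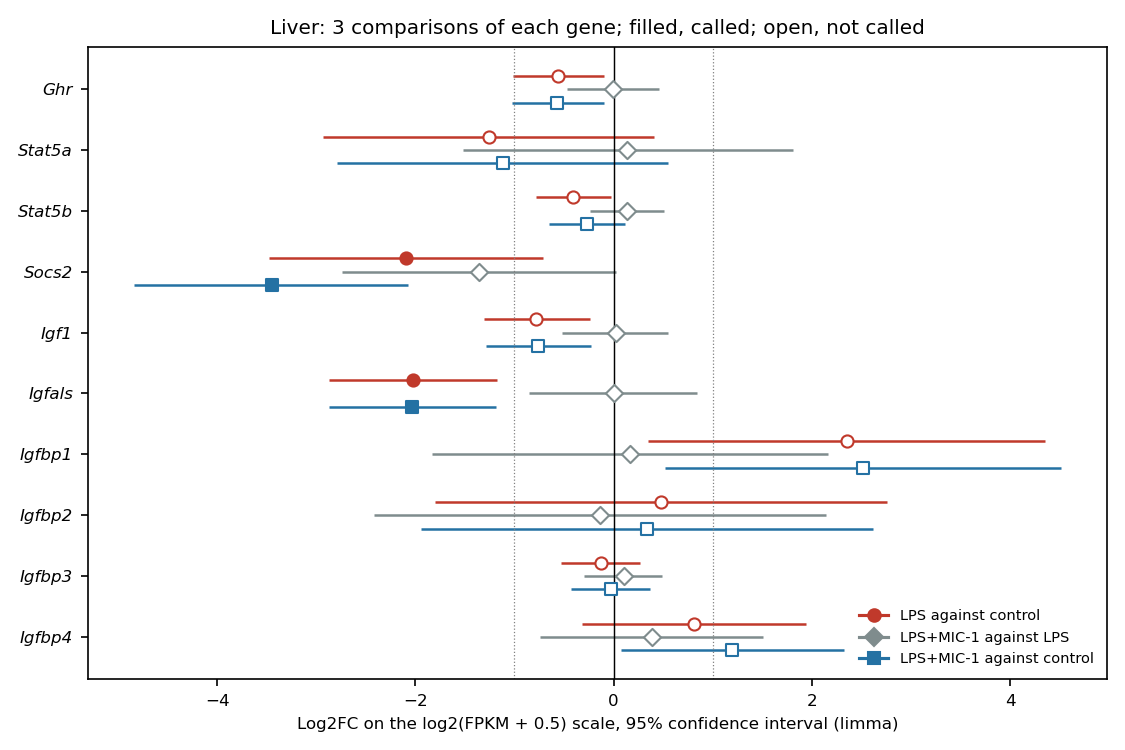
Log2FC on the log2(FPKM + 0.5) scale (horizontal axis) of each gene in the 3 liver comparisons, with 95% confidence intervals from limma. Filled symbols were called and open ones were not; dotted lines mark the minimum fold. The values for LPS+MIC-1 against LPS lie between -1.36 (Socs2) and 0.39 (Igfbp4), and both comparisons with control share the same control libraries.

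Other genes of the pathway were read from lists. Of 11 tested genes of growth hormone receptor signalling, 5 rose with LPS, 0 fell and 6 were not called, with 13.4% of all genes called higher. Their median Log2FC was 1.61. LPS+MIC-1 against control gave 5 higher and 1 lower, where 13.8% of all genes were called higher and 11.5% lower. Socs3, a cytokine-induced inhibitor of the receptor, was at 4.78 to 7.74 FPKM in the controls and 25.2 to 42.2 with LPS (Log2FC 2.51, SE 0.26, adjusted p = 7.42e-04). Bcl6, a repressor at STAT5 sites, rose by 2.33 (adjusted p = 0.00663). Stat3, which the receptors of the interleukin-6 family use, rose by 1.74 (adjusted p = 0.00566), and the phosphatase gene Ptpn1 by 1.61 (adjusted p = 0.00491). Cish, a STAT5 target and receptor inhibitor like Socs2 that is named here after its values were seen, was at 17.1, 3.19 and 2.34 FPKM in the controls and 1.89, 0.788 and 2.29 with LPS. It was called lower in LPS+MIC-1 against control (-2.5, adjusted p = 0.0278) and not with LPS alone (-1.48, adjusted p = 0.139). Of 15 genes of the rest of the IGF axis only 8 were abundant enough to test. Of these 1 rose and 1 fell, near the shares over all genes (13.4% higher and 11.2% lower). The genes called were Irs2, an adaptor of the insulin and IGF receptors (1.40, adjusted p = 0.0180), and the binding protein gene Igfbp5 (-1.61, adjusted p = 0.00201), which was also called lower with LPS+MIC-1 against control (-2.15, adjusted p = 6.46e-04). Igf1r, the IGF-1 receptor gene, was below the filter, was not tested and is named after its values were seen. It was the only untested gene of this list above 1 FPKM in a control. Its level was 1.77, 1.17 and 1.15 FPKM in the controls and 0.420, 0.535 and 0.289 with LPS. With LPS+MIC-1 it was 0.369, 0.294 and 0.266 FPKM.

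Growth hormone pulses maintain the male-biased expression of many liver genes. Of 18 tested male-biased genes, 3 rose, 7 fell and 8 were not called, with a median Log2FC of -0.67, and 3 rose and 6 fell in LPS+MIC-1 livers against control. Over all genes 13.4% rose and 11.2% fell with LPS, and 13.8% rose and 11.5% fell in LPS+MIC-1 against control. The number of male-biased genes that rose was near these shares. Hsd3b5, a hydroxysteroid dehydrogenase, was at 81.5 to 167 FPKM in the controls and 0.570 to 4.0 with LPS (-5.93, SE 0.59, adjusted p = 6.37e-04). Nudt7, a peroxisomal hydrolase, fell by 2.5 on the same scale (adjusted p = 0.00333). Moxd1 rose by 3.21 (adjusted p = 4.32e-04) and the glucuronosyltransferase gene Ugt2b38 by 2.30 (adjusted p = 0.0123). Moxd1 was below 1 FPKM in every control and at 5.38 to 6.64 FPKM with LPS. It therefore passed the filter on mean FPKM only through its treated libraries, and its call rests on low control values. Of 21 female-biased genes only 5 were abundant enough to test. Of these 1 rose, Cyp17a1 (3.78, adjusted p = 0.00590), and 2 fell, the prolactin receptor gene Prlr (-2.71, adjusted p = 0.00506) and Cyp2c40 (-1.64, adjusted p = 0.0155). Of 10 tested transcription factors linked to the axis, 3 rose and 1 fell, the latter near the background of 11.2%. Cebpd (3.03, adjusted p = 6.31e-04), Foxa3 (1.58, adjusted p = 0.00108) and Cebpb (1.19, adjusted p = 0.0187) were higher, and Onecut1, a growth hormone regulated liver factor, was lower (-2.92, adjusted p = 0.00350).

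The state of the livers was read beside these genes. All 10 tested genes of the hepatic LPS response rose, with Saa3 at 6.23, Lcn2 at 6.21, Saa2 at 6.05 and Saa1 at 6.00 on the log2 scale. Of 13 hepatocyte genes 2 rose and 4 fell, with a median of -0.25, where 13.4% of all genes rose and 11.2% fell. The fibrinogen gene Fgb rose by 3.05, and G6pc, Cps1 and Ass1, of glucose release and the urea cycle, fell by 2.67, 1.79 and 1.69. Kupffer cell and macrophage markers summed to 32.7 to 58.3 FPKM in the controls and 42.7 to 62.7 with LPS (1 of 6 higher, 2 lower). Endothelial markers summed to 65.9 to 77.3 and 46.8 to 67.5 FPKM (2 of 7 higher, 2 lower), and stellate cell markers to 127 to 244 and 110.1 to 157 (0 of 6 tested called). Neutrophil markers gave 6 of 7 higher and 1 lower, cholangiocyte markers 1 of 5 higher, and lymphocyte markers 1 tested gene, which was lower. No gene of any of the 7 lists was called between LPS+MIC-1 and LPS.

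**Figure D4:**
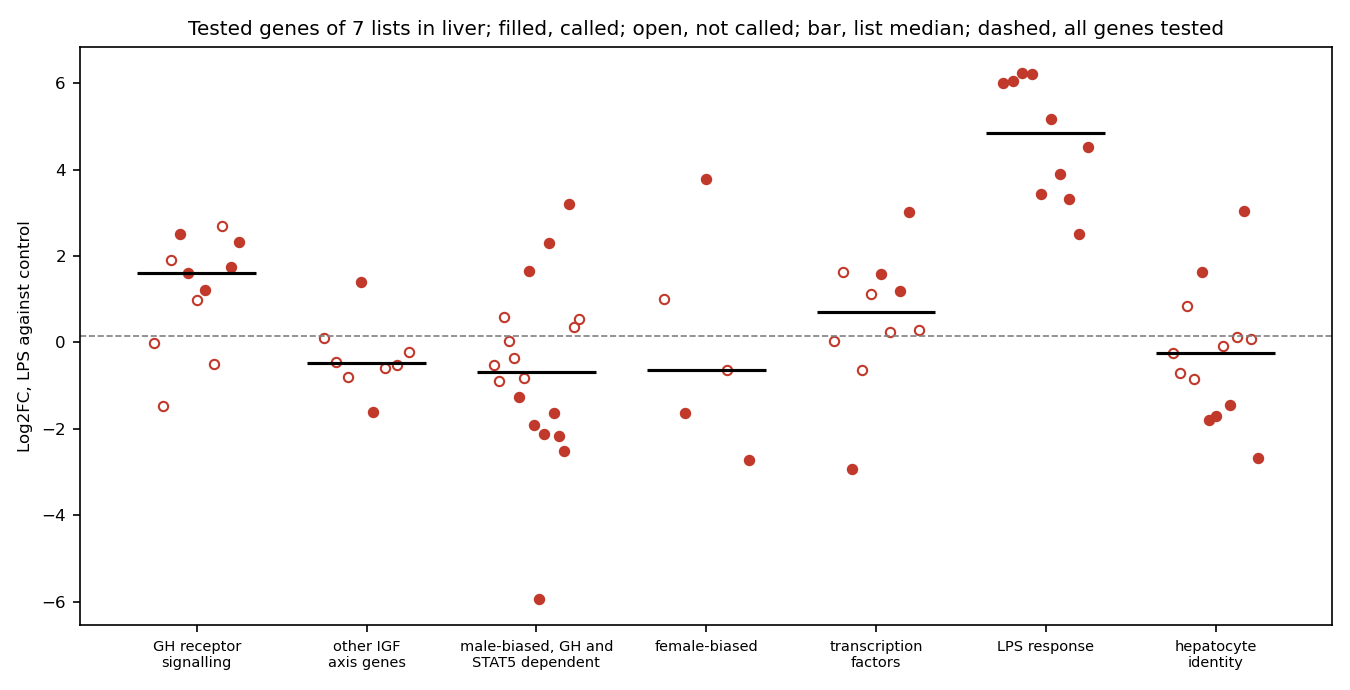
Log2FC of LPS against control in liver (vertical axis) for each tested gene of 7 lists, with the list median (bar) and the median of all tested genes, 0.15 (dashed line). Filled points were called and open ones were not. GH is growth hormone. The genes of receptor signalling have a median of 1.61 and the male-biased genes one of -0.67, with Hsd3b5 lowest at -5.93.

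Over the 9 liver libraries, which share their treatment groups and depths, Igf1 was close in pattern to Igfals (Pearson r = 0.96) and Ghr (0.91) and ran opposite to Igfbp1 (-0.88), on the log2(FPKM + 0.5) scale. The tested genes most like Igf1 were Nfic (0.989), Akap17b (0.989), Decr2 (0.986), Rbms3 (0.983) and Bace1 (0.980). Those most like Igfbp1 were Mmadhc (0.990), Rtn4rl2 (0.988), Asb3 (0.987), Hif1an (0.986) and Tmem55b (0.985). Igfbp2 followed Igfbp4 (0.81), and Igfbp3 had no correlation beyond 0.27 with any other member. These are descriptions of a set of 3 groups and carry no test.

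RAW264.7 cells, a mouse macrophage-like line, were measured in 9 further libraries, 3 each of control, LPS and LPS+MIC-1. The MIC-1 concentration of these cultures was 10 µM by the study's text and by the headers of the deposited columns, whereas the sample labels repeat the doses of the mice. The macrophage gene Csf1r was at 108 to 423 FPKM in them and Alb at 1.09 to 5.46. The tables were normalized separately, so levels are not compared between liver and macrophages. LPS library 2 stood at the level of the controls (r = 0.99 with control library 2, against 0.862 and 0.86 with the other LPS libraries). Without it 3515 genes were called between LPS and control, where none was called with it, and 2423 rather than 823 between LPS+MIC-1 and LPS.

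Igf1 was expressed in the macrophages and was lower with MIC-1. It was at 6.79, 8.65 and 6.98 FPKM in the controls, 9.05, 8.95 and 8.84 after LPS, and 1.28, 0.540 and 1.70 with LPS+MIC-1. The LPS+MIC-1 libraries were below all others. Igf1 fell by 2.57 on the log2 scale against LPS (SE 0.26, adjusted p = 0.00105, limma) and by 2.31 against control (SE 0.26, adjusted p = 0.00122), and both calls held with each library left out. It was the only member of the 4 tested that was called against LPS, where 4.19% of all 9905 genes were called lower (408 genes were higher and 415 lower, which became 762 and 128 when libraries were rescaled to the same FPKM sum). Without LPS library 2 both calls of Igf1 stood, with adjusted p-values of 1.36e-04 and 1.71e-04. LPS against control gave 0.25 (adjusted p = 0.437), which turned to -0.39 when libraries were rescaled to the same FPKM sum, a scaling that moved the median of all macrophage genes from -0.03 to -0.65 in that comparison.

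Igfbp4 was at 45.6, 58.4 and 44.6 FPKM in the control macrophages, 9.04, 57.6 and 8.07 after LPS, and 6.30, 6.31 and 6.99 with LPS+MIC-1. LPS library 2 again sat among the controls. Over all libraries no gene was called between LPS and control (0% of 9905, smallest adjusted p = 0.0777, with 4928 genes or 49.8% at an unadjusted p below 0.05), and Igfbp4 gave -1.56 (adjusted p = 0.0894). Without LPS library 2 it gave -2.46 (adjusted p = 2.81e-06) and was called. Against control, LPS+MIC-1 gave a Log2FC of -2.82 for Igfbp4 (SE 0.64, adjusted p = 0.0174), so that 2 of 4 tested members were called there, with 6.02% of all genes called lower. That call of Igfbp4 was lost when any of the 6 control or LPS+MIC-1 libraries was left out (adjusted p 0.0516 to 0.0639), although the Log2FC stayed between -2.89 and -2.70, and without LPS library 2 its adjusted p was 2.86e-06. Stat5b was at 5.71 to 6.78 FPKM in the controls, 6.46 to 8.93 with LPS and 5.74 to 8.0 with LPS+MIC-1, and Stat5a at 0.724 to 0.896, 0.852 to 1.42 and 0.705 to 1.29. Neither was called in any comparison. The overlap of Stat5b between LPS and control rested on LPS library 2 (6.46 FPKM), since libraries 1 and 3 (8.93 and 7.94 FPKM) were above every control. Without that library the Log2FC of Stat5b was 0.40 (adjusted p = 0.0390, below the minimum fold), against 0.28 (adjusted p = 0.212) with it and -0.36 with all libraries scaled to the same FPKM sum. Stat5a gave 0.28 (adjusted p = 0.306) without that library and 0.31 (adjusted p = 0.277) with it. Socs2 was below the filter, at 0.305, 0.259 and 0.156 FPKM in the controls, 0.35, 0.132 and 0.318 after LPS, and 0.929, 0.627 and 0.952 with LPS+MIC-1. Its LPS+MIC-1 libraries were above all others (exact permutation p = 0.1, the smallest possible). Igfals and Igfbp3 were listed at 0 in all 9 macrophage libraries, and Ghr, Igfbp1 and Igfbp2 at 0.123 FPKM or less.

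**Figure D5:**
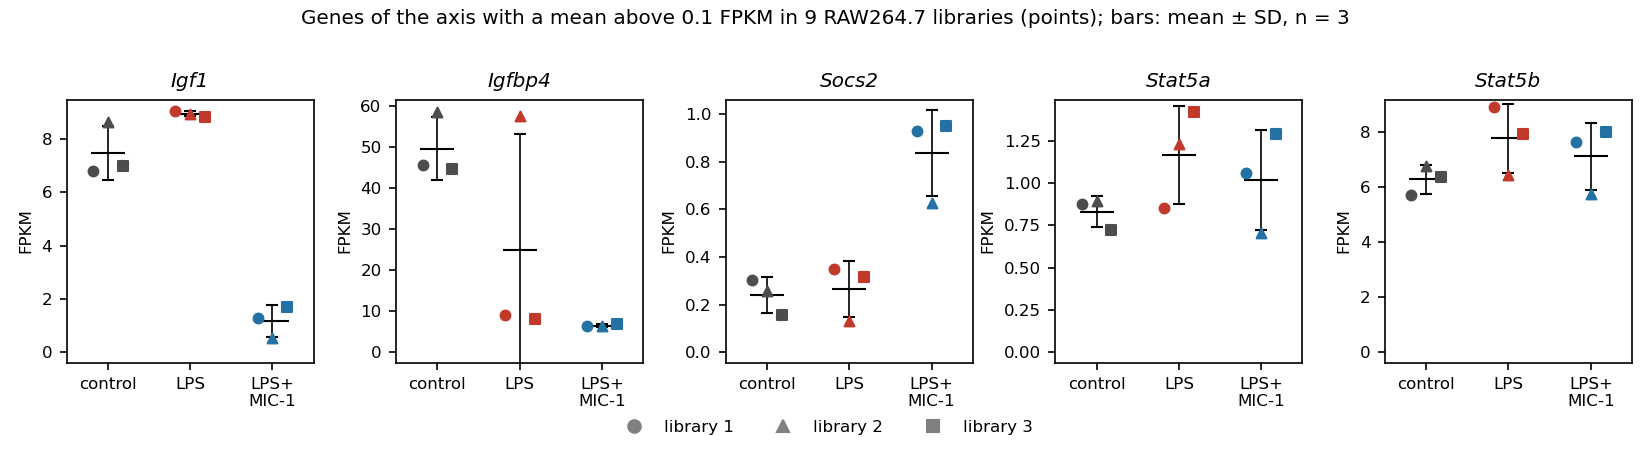
FPKM (vertical axes, each with its own range) of 5 genes of the axis in RAW264.7 cells by treatment. Symbols mark libraries 1 to 3, the horizontal bar is the mean and the whiskers the SD (n = 3, cut where they pass below 0). Igf1 is lowest in the LPS+MIC-1 libraries (0.540 to 1.70 FPKM), and for Igfbp4 LPS library 2 (57.6 FPKM) stands with the controls.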

How the data were processed

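Liver and RAW264.7 libraries (9 each, 3 per group) were sequenced at BGI. The authors pseudoaligned the reads with Kallisto 0.45.0 to a RefSeq transcript index of mm9, used tximport to bring the estimates to genes, and with DESeq2 1.20.0 made the FPKM values that they deposited. The 6 deposited tables of the authors' own comparisons (fold changes and p-values) were not used. All columns were assigned to a group by name, and 0 were left over. The study left an LPS macrophage library out of its own macrophage analysis, and all 9 deposited libraries were used here.

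Genes with a mean above 1 FPKM over the 9 libraries of a table were tested on log2(FPKM + 0.5), with all 3 groups of a table in 1 fit (limma 3.58.1, R 4.3.3, eBayes with trend, Benjamini-Hochberg adjustment over all tested genes). On this scale the change of low genes is understated. Exact permutation tests (two-sided) compared group means of the same log2 values. The fit was first tested on simulated data with known changes. The members and the lists of genes were chosen with earlier results of these data known. The genes named are all members, up to 4 called genes of each list with the largest absolute Log2FC for LPS against control, and the 5 genes most correlated with Igf1 and with Igfbp1. Cish and Igf1r were added after their values were seen. Depth was estimated from FPKM steps, using GENCODE transcript lengths on NCBIM37. Of the low genes examined, 60.8% in liver and 65.1% in macrophages had only values within 0.1 of a whole read, so counts were not recovered for a count test and the depths are approximate. Each pair of libraries of a group differed by more than sampling noise, which cannot show whether they came from separate mice or cultures. In liver the squared difference over sampling variance was 3.99 between LPS+MIC-1 libraries 1 and 3. Their values with library 2 were 41.5 and 42.0. All libraries were counted as replicates, as labelled. Alternatives comprised other pseudocounts, filters, scalings, fits and thresholds, each library left out, and 3 chosen after seeing the data. Python 3.11.15, scipy 1.17.1 and matplotlib 3.10.9 were used.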

Additional observations from a re-analysis of the deposited data

Results flagged for a closer look

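Changes that ran in opposite directions in liver and in macrophages, with no overlap between groups in either, were found for 3 members. How many of all genes met this rule was not counted, so these 3 cannot be set against a background. In liver, LPS ranges lay wholly below the controls for 20.8% of tested genes. For LPS+MIC-1 against control they lay apart in either direction for 54.6%. The difference between liver and macrophages was not tested, since the tables were normalized separately. For Igf1, LPS against control gave -0.78 in liver and 0.25 in macrophages, and the macrophage value turned to -0.39 when libraries were rescaled to the same FPKM sum. For Ghr the same comparison gave -0.56 in liver and 0.16 in macrophages, where Ghr was listed at 0.123 FPKM or less. Its highest macrophage control (0.0365 FPKM) and lowest macrophage LPS library (0.0387 FPKM) were each estimated at 3 reads. For Socs2, LPS+MIC-1 against control gave -3.45 in liver and 0.85 in macrophages, where it was at 0.952 FPKM or less. Igf1 is the only of these genes that passed the filter on low values in both tables.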

How the results depend on the processing

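No paired analysis was possible because the columns of the deposited tables carry no replicate number. Array weights called 4302 genes and 5 members for LPS against control in liver, 631 and 1 for LPS+MIC-1 against LPS, and 3928 and 5 for LPS+MIC-1 against control. In both comparisons with control 3 of these members were higher (Igfbp1, Igfbp2 and Igfbp4) and 2 lower, where the main fit called 0 members higher. An adjusted p below 0.01 left 1102 genes and 1 member (Igfals) for LPS and 1370 genes for LPS+MIC-1 against control. Averaging libraries 1 and 3 of the treated groups left 630 genes and 0 members, and 1383 genes. For LPS+MIC-1 against LPS a pseudocount of 1, no filter and no trend called 1, 2 and 1 genes. Leaving out library 2 of both treated groups called 303 genes and 0 members in that comparison. For LPS+MIC-1 against control it called 2945 genes and 4 members, 2 higher (Igfbp1 and Igfbp4) and 2 lower. Scaling to the same sum called 3119 genes and 4 members for LPS+MIC-1 against control, with all 4 members lower. In macrophages array weights called 3645 genes and 1 member (Igfbp4) for LPS, where no trend called 1 gene, and 2387 and 1989 genes for LPS+MIC-1 against LPS and against control. For these, no minimum fold gave 2141 and 2456 genes, and an adjusted p below 0.01 gave 383 and 554, with 1 member (Igf1) against control. Fitting only the groups compared called 381 for LPS+MIC-1 against LPS. With each library left out, LPS against control called 1227 to 3510 genes and 1 to 2 members, LPS+MIC-1 against LPS 0 to 35 genes and 0 members, and LPS+MIC-1 against control 1749 to 3111 genes and 2 to 3 members. In macrophages, in the same order, 0 to 3515, 445 to 2423 and 558 to 1624 genes and 0 to 1, 1 to 1 and 1 to 2 members were called. Leaving out LPS library 2 gave each of the 3 highest gene counts.

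All reversed values belonged to differences that were not called. For LPS+MIC-1 against LPS in liver, array weights gave Ghr 0.05, Igfals 0.33 and Igfbp1 -0.67. Scaling to the same sum gave Igf1 -0.27, Igfbp1 -0.12, Igfbp3 -0.18 and Stat5b -0.13. Leaving out library 2 of both treated groups gave Ghr 0.07, Igfals 0.35, Igfbp1 -0.74 and Stat5a -0.09, and averaging gave Igf1 -0.01. Against control, Igfbp3 became 0.11 with array weights and 0.13 without both libraries, and Igfbp2 -0.30 with the same sum. In macrophages the same sum turned Igf1 (-0.39), Stat5a (-0.12) and Stat5b (-0.36) for LPS against control, Stat5a (0.17) and Stat5b (0.34) for LPS+MIC-1 against LPS, and Stat5b (-0.02) for LPS+MIC-1 against control. With libraries left out in turn, Igfbp2 ran from -0.28 to 1.54 for LPS and -0.41 to 1.41 for LPS+MIC-1 against control, and Igfbp3 from -0.13 to 0.13 in the latter. For LPS+MIC-1 against LPS, Ghr ran from -0.04 to 0.03, Igf1 from -0.10 to 0.17, Igfals from -0.20 to 0.31, Igfbp1 from -1.04 to 0.78, Igfbp2 from -0.86 to 0.47 and Stat5a from -0.41 to 0.77. In macrophages Stat5a ran from -0.29 to 0.02 and Stat5b from -0.24 to 0.02. Of the other values of single genes, 764 under planned and 49 under added alternatives kept their direction and call. The cause of each change was not tested. Liver Stat5a, at 0 to 93 estimated reads per library, was the member with the least depth.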
